A study of Homo sapiens with 9 samples.

Results

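The genes described here are 10 mediators and feedback regulators of the NF-kB response, taken by name from the 58735 genes measured in H1299, an established human lung cancer cell line. They are the CXC chemokines CXCL1, CXCL2, CXCL3, CXCL5 and CXCL8, the CC chemokine CCL2, the interleukin-1 cytokines IL1A and IL1B, and the inhibitors NFKBIA and TNFAIP3. Each of the 10 names was found once in the table. RNA was sequenced in 9 libraries, 3 from each of 3 groups. The Vector group is H1299 transduced with the lentiviral lentiCRISPR v2 plasmid and labelled wild type. KO1 and KO2 are 2 monoclonal lines, each grown from 1 clone by limited dilution after CRISPR editing of BCKDK, the kinase that inhibits the branched-chain ketoacid dehydrogenase complex. The labels name no cytokine, drug or other agent for any group, so the levels are those of cells to which no inducer is recorded as added. Vector is not described as monoclonal, so editing and single-cell cloning cannot be told apart in a comparison with it, and KO1 and KO2 share the same Vector libraries. The labels do not name separate cultures behind the replicates, so p-values measure only the spread between libraries, which may be technical.

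NF-kB is a family of dimeric transcription factors that IkB proteins hold in the cytoplasm. Signals from interleukin-1, tumour necrosis factor or Toll-like receptors activate the IkB kinases, IkB is degraded, and the dimers enter the nucleus and switch on chemokine and cytokine genes. They also switch on NFKBIA, which encodes IkB-alpha, and TNFAIP3, which encodes the ubiquitin-editing enzyme A20, and both then restrain the pathway. CXCL1, CXCL2, CXCL3, CXCL5 and CXCL8 encode small secreted proteins that attract neutrophils through the receptor CXCR2. Their genes lie close together on chromosome 4, and many carcinoma cells secrete these chemokines.

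The promoters of the CXC chemokine genes and of NFKBIA are shown because they carry the same short NF-kB motif, while the RNA levels of these genes differed widely. Each sequence is the 150 bases before the RefSeq start (GRCh38.p14), 5′ to 3′ on the strand of the gene, and capitals mark matches, on either strand, to the NF-kB consensus or to GGAATTTCC.
CXCL2: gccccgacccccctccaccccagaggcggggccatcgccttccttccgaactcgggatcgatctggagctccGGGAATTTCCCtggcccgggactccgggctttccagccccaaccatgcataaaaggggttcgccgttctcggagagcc
CXCL1: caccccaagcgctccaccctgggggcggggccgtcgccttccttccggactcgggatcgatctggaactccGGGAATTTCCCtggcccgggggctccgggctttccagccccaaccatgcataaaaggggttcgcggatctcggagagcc
CXCL3: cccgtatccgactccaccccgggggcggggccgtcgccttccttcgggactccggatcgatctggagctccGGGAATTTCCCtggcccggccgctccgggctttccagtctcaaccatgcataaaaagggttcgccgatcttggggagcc
CXCL5: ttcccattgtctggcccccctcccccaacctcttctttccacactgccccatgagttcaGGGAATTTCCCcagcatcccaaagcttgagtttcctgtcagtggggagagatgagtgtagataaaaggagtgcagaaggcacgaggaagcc
CXCL8: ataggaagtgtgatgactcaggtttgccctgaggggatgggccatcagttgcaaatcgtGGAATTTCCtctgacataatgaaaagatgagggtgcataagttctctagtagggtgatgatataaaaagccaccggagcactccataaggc
NFKBIA: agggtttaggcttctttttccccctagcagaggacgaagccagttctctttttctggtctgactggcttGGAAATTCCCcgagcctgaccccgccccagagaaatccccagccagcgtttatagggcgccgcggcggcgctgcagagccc

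These windows are chr4:74099196-74099345 on the minus strand for CXCL2, chr4:73869243-73869392 on the plus strand for CXCL1 and chr4:74038690-74038839 on the minus strand for CXCL3. For CXCL5 the window is chr4:73998678-73998827 on the minus strand, for CXCL8 chr4:73740419-73740568 on the plus strand, and for NFKBIA chr14:35404750-35404899 on the minus strand. In the annotation of the table (GENCODE 29), the starts of CXCL2, CXCL3, CXCL5 and CXCL8 lie inside these windows. The CXCL2 and CXCL1 windows were identical at 88.8% of aligned positions, CXCL2 and CXCL3 at 86.3%, and CXCL1 and CXCL3 at 88.1%. CXCL2 shared 53.1% with CXCL5 and 44.0% with CXCL8. The 10-base match GGGAATTTCC ended at position -69 from the start in CXCL2 and at position -70 in both CXCL1 and CXCL3.

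The RefSeq table held windows of 300 bases, 250 before and 50 after the start, for 9 of the 10 genes, and CCL2 was not matched. The NF-kB consensus, searched on both strands, was found in 6 of them: CXCL1, CXCL2, CXCL3, CXCL5, NFKBIA and TNFAIP3. The consensus was found in 11.3% of all 34943 promoter windows of this length. The letters GGAATTTCC, which partly overlap the consensus, were found on either strand in CXCL1, CXCL2, CXCL3, CXCL5, CXCL8 and NFKBIA, and in 0.464% of all windows. The AP-1 letters TGANTCA, also searched on both strands, were found in CXCL8 and IL1A and in 7.72% of all windows. A match describes letters in a window and does not show that a factor bound there.

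The libraries held between 16002212 and 17090445 reads assigned to genes, recovered from the deposited FPKM (fragments or reads scaled by exon length and depth). BCKDK itself ranged from 12.9 to 17.5 FPKM in the Vector libraries, from 1.67 to 2.06 in those of KO1 and from 0.287 to 0.629 in those of KO2. The third replicates of Vector and of KO2 were set off from their groups and are called the 2 libraries that stood apart. Their chi-square per degree of freedom against the others of their group was 39.1 to 46.4, whereas all other pairs within a group lay between 2.35 and 6.21. Of 10 lung adenocarcinoma markers, 6 stayed under 0.5 FPKM in all 9 libraries, among them NKX2-1, SFTPB, EPCAM and CDH1. These are markers of adenocarcinoma, so no conclusion about the identity of the line is drawn from them. The summed level of the 10 spanned 67.2 to 92.2 FPKM for Vector, 426.2 to 490.2 for KO1 and 102.4 to 121.1 for KO2, carried mainly by the keratins KRT8 and KRT18. Of 11 leukocyte markers, which other producers of these chemokines would carry, 5 were at 0 in all libraries (S100A8, S100A9, CSF3R, CD3E and MS4A1). The summed leukocyte level spanned 0.625 to 1.0 FPKM for Vector, 0.723 to 0.741 for KO1 and 0.666 to 0.863 for KO2. All 5 endothelial markers stayed under 0.5 FPKM in each library, with sums of 0.108 to 0.153, 0.125 to 0.185 and 0.0618 to 0.130 FPKM in the same order. Of 6 fibroblast markers 5 did so, and their sums were 0.141 to 0.201 FPKM for Vector, 0.00530 to 0.0274 for KO1 and 0.541 to 0.729 for KO2.

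The 10 genes spanned from abundant to nearly undetected. CXCL2 had by far the highest level of the 10, with a mean over the 9 libraries of 113.9 FPKM. NFKBIA followed at 5.14 FPKM, TNFAIP3 at 1.52, CXCL1 at 0.798 and CXCL3 at 0.605. IL1B (0.138 FPKM), IL1A (0.114), CXCL8 (0.0318), CCL2 (0.0261) and CXCL5 (0.00248) followed. FPKM is a level per exon length, so these values can be set beside each other. Between neighbours in this order, CXCL2 was above NFKBIA in each of the 9 libraries, and NFKBIA above TNFAIP3 in all Vector and KO2 libraries but not throughout KO1. The ranges of TNFAIP3 and CXCL1 overlapped in KO2. Over the 9 libraries the ranges of all later neighbours in this order overlapped, from CXCL1 and CXCL3 down to CCL2 and CXCL5. CXCL3 was still above IL1B within each library. The order among the lowest genes depended on the group. In KO1 the means of IL1B (0.332 FPKM) and IL1A (0.295) were above that of CXCL8 (0.00919), whereas in KO2 the means of CCL2 (0.0783 FPKM) and CXCL8 (0.0684) were above those of IL1A (0.0273) and IL1B (0.0187). Changes were tested with limma on log2(FPKM + 1) over the 16426 genes that averaged 0.5 FPKM or more, and a gene was called at an adjusted p under 0.05 within a comparison. CXCL2, NFKBIA, TNFAIP3, CXCL1 and CXCL3 passed that filter, and the other 5 did not. The log2(FPKM + 1) scale understates the changes of low genes.

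Of the 5 fitted genes, 0 rose and 1 (NFKBIA) fell in KO1 against Vector, where 34.1% of all fitted genes were called, 17.4% rising and 16.7% falling. In KO2 against Vector 0 rose and 1 (CXCL2) fell, against a background of 27.9% called, 12.9% rising and 15.0% falling. Between the clones, KO2 against KO1, NFKBIA rose and CXCL2 fell, where 30.9% of all fitted genes were called, 14.5% rising and 16.4% falling. With so few genes these shares are near the background and say nothing about the group as a whole. The counts of 0 rising genes in KO1 and in KO2 were also 0 at an unadjusted limma p under 0.05 and with limma-voom on the recovered reads. The median log2 change of the 5 was -0.07 in KO1, -0.11 in KO2 and -0.10 between the clones, beside 0.01, -0.01 and -0.02 for all fitted genes. With 1 call per clone, whether the genes moved together was not tested.

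**Figure D1:**
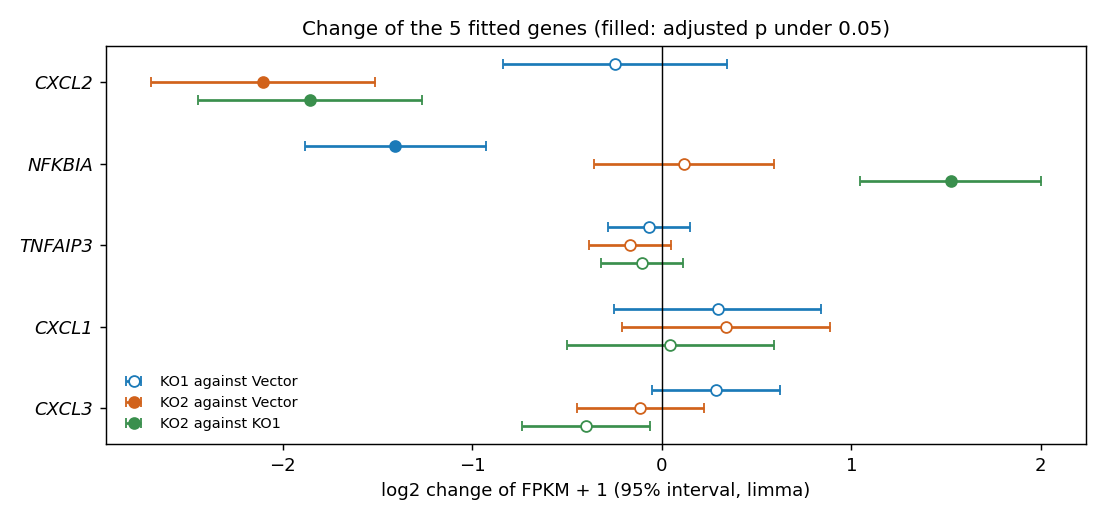
Change of the 5 fitted genes in each comparison on the log2(FPKM + 1) scale (x axis), with points at the limma estimate and bars for its 95% interval; filled points have an adjusted p under 0.05. CXCL2 lies at -2.11 in KO2 against Vector and NFKBIA at -1.41 in KO1 against Vector, while the intervals of both cover 0 in the other clone.

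CXCL2 (ENSG00000081041, chr4:74097035-74099293, minus strand, hg38) encodes the neutrophil chemoattractant also known as GRO-beta or MIP-2-alpha. It was measured at 146.0, 123.3 and 233.9 FPKM in Vector replicates 1, 2 and 3. In KO1 it was measured at 144.1, 135.0 and 128.8 FPKM, and in KO2 at 46.3, 41.8 and 25.7 FPKM. All 3 KO2 libraries lay below every Vector and KO1 library, while the KO1 values fell inside the Vector range, whose top is replicate 3. The Vector mean was 167.8 ± 58.4 FPKM, the KO1 mean 136.0 ± 7.70 and the KO2 mean 37.9 ± 10.8 (SD, n = 3 each), and the KO2 mean was 0.226 of that in Vector and 0.279 of that in KO1. Among all 58735 genes CXCL2 ranked 135 by its mean in Vector, 230 in KO1 and 854 in KO2, so it was still a well expressed gene in KO2. The reads behind these values ranged from 623 to 6167 a library, so counting error was small beside the spread between libraries.

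CXCL2 fell by 2.11 on the log2 scale in KO2 against Vector (SE 0.263, 95% interval -2.70 to -1.51, limma adjusted p = 0.000468). In KO1 its log2 difference from Vector was -0.25 (interval -0.84 to 0.34, limma adjusted p = 0.502), which did not pass. The difference between the clones was itself tested and gave -1.86 (interval -2.45 to -1.27, limma adjusted p = 0.000856). Both libraries that stood apart touch this gene, as Vector replicate 3 was the highest and KO2 replicate 3 the lowest library. Without both of them CXCL2 still fell by 1.59 in KO2 (limma adjusted p = 6.28e-05). The median change of the 35 fitted genes within 5 Mb was -0.04 in KO2, so the genes around CXCL2 did not fall with it on balance.

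**Figure D2:**
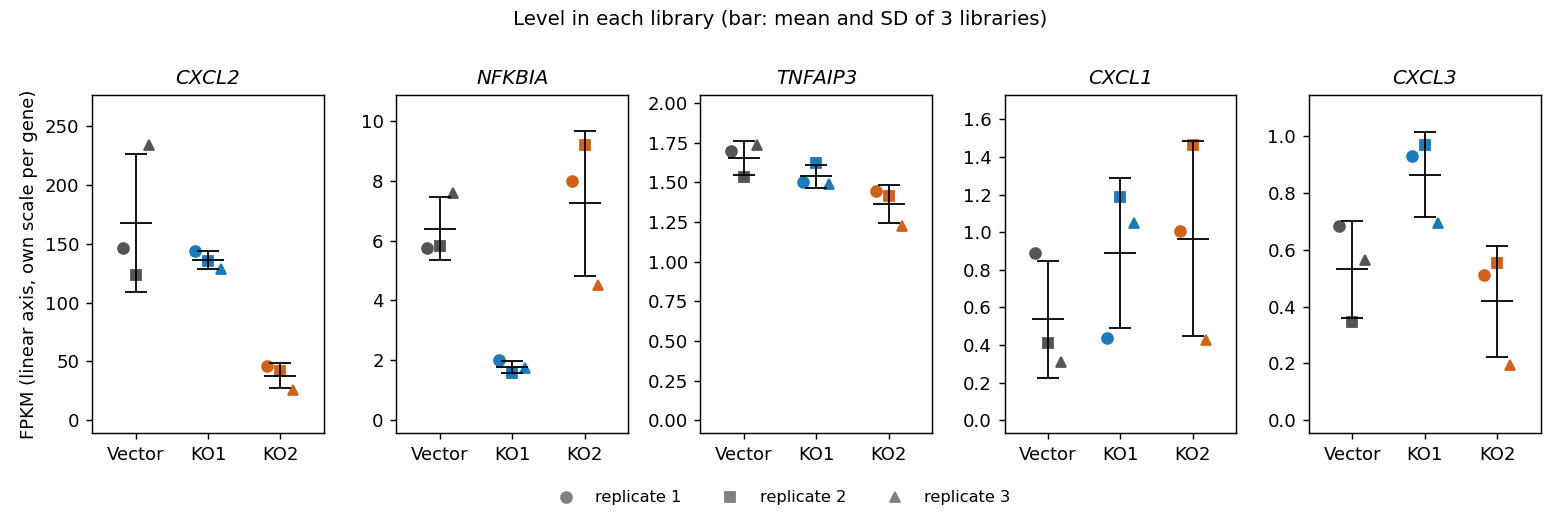
Level in FPKM (y axis, linear, own scale per gene) of the 5 fitted genes in each library of Vector, KO1 and KO2 (x axis); symbols mark replicates and the bars the mean and SD of 3 libraries. For CXCL2 the KO2 libraries (25.7 to 46.3) sit under all others, and for NFKBIA the KO1 libraries (1.58 to 2.01) do.

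CXCL1 (ENSG00000163739, chr4:73869393-73871242, plus strand) encodes GRO-alpha, the closest relative of CXCL2 together with CXCL3. The Vector replicates 1 to 3 had 0.891, 0.410 and 0.307 FPKM, those of KO1 0.435, 1.19 and 1.05, and those of KO2 1.01, 1.46 and 0.429. The groups overlapped, and replicate 3 was the lowest library of KO2 as it was for CXCL2. The log2 difference was 0.29 in KO1 (interval -0.25 to 0.84, limma adjusted p = 0.384), 0.34 in KO2 (adjusted p = 0.334) and 0.04 between the clones (adjusted p = 0.912). Each library held 7 to 34 reads of CXCL1, so only a large change could have been detected.

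CXCL3 (ENSG00000163734, chr4:74036589-74038807, minus strand) encodes GRO-gamma. The Vector replicates had 0.685, 0.346 and 0.564 FPKM, those of KO1 0.932, 0.970 and 0.693, and those of KO2 0.510, 0.553 and 0.195. Every KO1 library was above every Vector and KO2 library, with 7 to 35 reads a library. The log2 difference was 0.29 in KO1 (limma adjusted p = 0.168), -0.11 in KO2 (adjusted p = 0.611) and -0.40 between the clones (adjusted p = 0.0706). None of the 3 passed, and the last had an unadjusted p under 0.05.

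Relative to its paralogs CXCL2 was lower in KO2 libraries than elsewhere. The ratio of the CXCL2 level to the CXCL3 level was 213.3, 356.4 and 414.7 in Vector, 154.6, 139.2 and 185.8 in KO1, and 90.7, 75.5 and 131.7 in KO2, and the KO2 values lay below all others. The ratio of CXCL2 to CXCL1 was 163.9 to 761.2 in Vector, 113.8 to 331.1 in KO1 and 28.5 to 59.8 in KO2. These ratios rest on few reads of CXCL1 and CXCL3. Of the 50-base stretches in transcripts of CXCL2, 12.5% also occur in CXCL1 or CXCL3, and 4.81% of those of CXCL1 and 6.01% of those of CXCL3 occur in a paralog. The handling of reads with several matches is not given in the sources used here, so the low levels of CXCL1 and CXCL3 are uncertain: reads of the far more abundant CXCL2 could have been assigned to them.

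CXCL8 (ENSG00000169429, chr4:73740506-73743716, plus strand) encodes interleukin-8, the best known neutrophil chemokine. It had 2, 0 and 0 reads in Vector, 1, 0 and 0 in KO1, and 3, 2 and 3 in KO2. CXCL5 (ENSG00000163735, chr4:73995642-73998779, minus strand), a related neutrophil chemokine, had 1 read in KO2 replicate 1 and 0 in the other libraries. Both were thus close to undetected, though their promoters carry the same GGAATTTCC letters as that of CXCL2. For CXCL8 the 8 reads of KO2 against 2 in Vector gave a ratio of 3.94 (95% counting interval 0.786 to 38.1, exact permutation p = 0.2, 0.325 adjusted over 13 tests). Against the 1 read of KO1 the ratio was 7.59 (counting interval 1.02 to 336.8, exact permutation p = 0.1, adjusted 0.186). Counting intervals here cover counting error only.

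CCL2 (ENSG00000108691, chr17:34255218-34257203, plus strand) encodes the monocyte chemoattractant MCP-1. It had 0 reads in all 6 Vector and KO1 libraries and 3, 2 and 3 reads in KO2. With 3 reads over the group as the limit that a count of 0 allows, the 8 reads of KO2 gave ratios of 2.63 to Vector and 2.53 to KO1. These ratios leave out the counting error of the 8 reads, so they are not lower bounds. The exact two-sided permutation p was 0.1 for both comparisons (adjusted 0.186), the smallest that 3 against 3 libraries allow. A fit of all 35603 genes above 0, without a filter, put CCL2 higher by 0.11 log2 in KO2 than in Vector. CCL2 was called there (limma adjusted p = 0.00951), but only the KO2 libraries could show any spread, since the other 6 had 0 reads. Its SE may thus be too small, and no conclusion is drawn from that call. At this depth CCL2 was a barely detected transcript in KO2 and an undetected one elsewhere.

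IL1A and IL1B encode interleukin-1 alpha and beta, the cytokines that activate NF-kB through the IL-1 receptor, and both were low. IL1A (ENSG00000115008, chr2:112773915-112784590, minus strand) had 0, 1 and 1 reads in Vector, 10, 5 and 16 in KO1, and 1, 1 and 1 in KO2. Every KO1 library was above every other library. The 31 reads of KO1 against 2 in Vector gave a ratio of 16.1 (95% counting interval 4.09 to 138.7), and the 3 reads of KO2 against 31 in KO1 one of 0.0918 (0.0180 to 0.294).

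IL1B (ENSG00000125538, chr2:112829751-112836903, minus strand) had 0, 3 and 7 reads in Vector, 12, 12 and 27 in KO1, and 0, 2 and 1 in KO2. Its KO1 libraries too were above all others, with a mean of 0.332 FPKM against 0.0620 in Vector and 0.0187 in KO2. The 51 reads of KO1 against 10 in Vector gave a ratio of 5.29 (counting interval 2.66 to 11.7). The 3 reads of KO2 against 10 in Vector gave 0.295 (0.0522 to 1.15, exact permutation p = 0.4), and against 51 in KO1 0.0558 (0.0111 to 0.173). For IL1A and for IL1B the exact two-sided permutation p of KO1 against Vector was 0.1, the smallest possible, and 0.186 after adjustment over 13 tests. In the fit without a filter both passed in KO1 against Vector (log2 0.34, limma adjusted p = 0.0180 for IL1A and 0.32, adjusted p = 0.0347 for IL1B). They also passed there between the clones (log2 -0.33, limma adjusted p = 0.0232 and -0.38, adjusted p = 0.0199). The SD of IL1A was 0.1505 FPKM in KO1, 0.0158 in Vector and 0.00152 in KO2, and that of IL1B 0.159, 0.0645 and 0.0181. The SE pooled over the groups may thus be too small for KO1, and no conclusion is drawn from these calls.

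**Figure D3:**
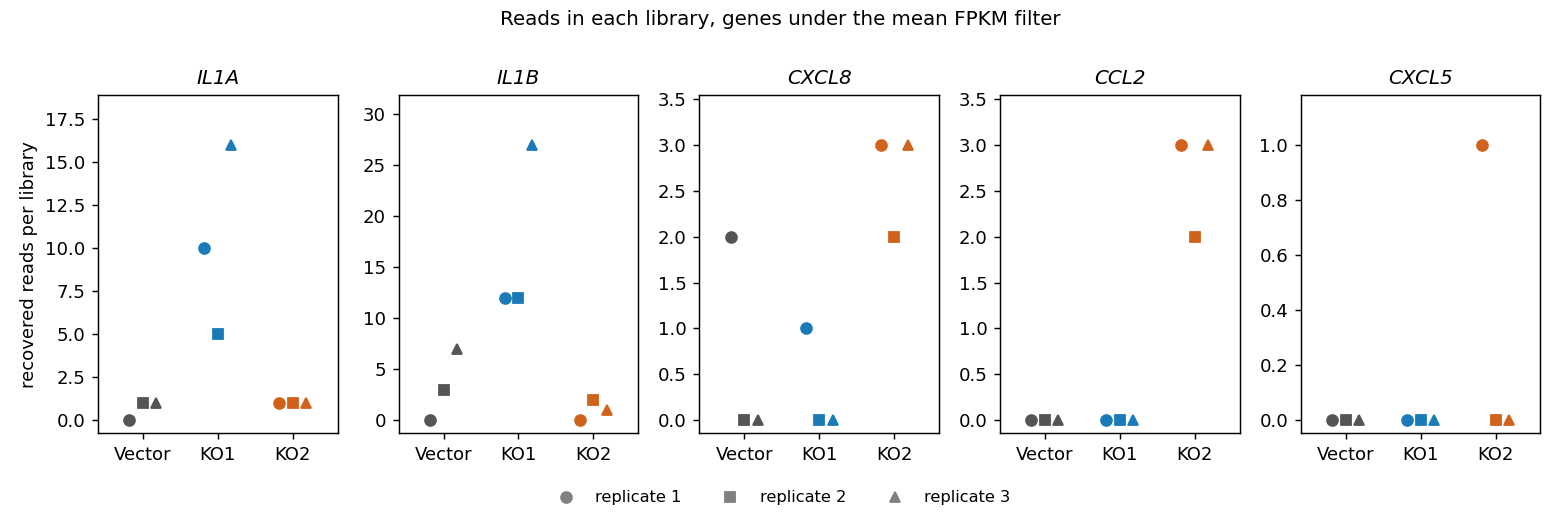
Recovered reads (y axis, linear, own scale per gene) of the 5 genes under a mean of 0.5 FPKM in each library of Vector, KO1 and KO2 (x axis); symbols mark replicates. IL1A (5 to 16 reads) and IL1B (12 to 27) are highest in the 3 KO1 libraries, and CCL2 has reads in the 3 KO2 libraries alone (2 to 3).

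NFKBIA (ENSG00000100906, chr14:35401511-35404749, minus strand) encodes IkB-alpha, the inhibitor that NF-kB itself induces. The Vector replicates had 5.76, 5.83 and 7.60 FPKM, those of KO1 2.01, 1.58 and 1.75, and those of KO2 7.99, 9.19 and 4.53. All 3 KO1 libraries lay below every other library, while KO2 overlapped Vector, with KO2 replicate 3 the lowest of both groups. The Vector mean was 6.40 ± 1.04 FPKM, the KO1 mean 1.78 ± 0.215 and the KO2 mean 7.24 ± 2.42 (SD, n = 3 each). The KO1 mean was 0.278 of that in Vector, and the KO2 mean 4.07 times that in KO1. Reads ranged from 61 to 391 a library.

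NFKBIA fell by 1.41 on the log2 scale in KO1 against Vector (SE 0.212, interval -1.88 to -0.93, limma adjusted p = 0.00104). It rose by 1.52 in KO2 against KO1 (interval 1.05 to 2.0, limma adjusted p = 0.000779). In KO2 against Vector the difference was 0.12 (interval -0.36 to 0.59, limma adjusted p = 0.718), which did not pass. Without both libraries that stood apart, that difference was 0.50 and passed (adjusted p = 0.00560). The 40 fitted genes within 5 Mb of NFKBIA were also lower in KO1, with a median log2 change of -0.49, and higher in KO2 than in KO1, with a median of 0.58. With these medians subtracted, the fall of NFKBIA in KO1 was -0.92 (adjusted p = 0.0122 with the limma SE unchanged) and its rise between the clones 0.95 (adjusted p = 0.0108), and both passed. These p-values take the medians as exact, so they may be too small. The part of the surrounding genes in the result was not tested further.

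TNFAIP3 (ENSG00000118503, chr6:137867188-137883312, plus strand), which encodes the inhibitor A20, was nearly level across the groups. The Vector replicates had 1.70, 1.53 and 1.74 FPKM, those of KO1 1.5, 1.62 and 1.49, and those of KO2 1.45, 1.41 and 1.22. The KO2 libraries lay just below the Vector libraries, without overlap, and the means were 1.65 ± 0.108, 1.54 ± 0.0724 and 1.36 ± 0.121 FPKM (SD, n = 3 each). The log2 differences were -0.07 in KO1 (limma adjusted p = 0.636), -0.17 in KO2 (adjusted p = 0.221) and -0.10 between the clones (adjusted p = 0.450), and none passed. The gene overlaps AL357060.1 on the other strand, and no strand setting is given in the sources used here. Of the 50-base stretches of TNFAIP3 transcripts, 0.912% also occur in that gene on either strand, and reads from those stretches cannot be told apart.

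The counts for the following lists stand beside the same background of 34.1% of fitted genes called in KO1 and 27.9% in KO2. Other chemokines were mostly undetected or low. Of 26 further chemokine genes, 13 were at 0 in all libraries and only CCL28 and CXCL16 passed the filter. CCL28, a mucosal chemokine, had means of 3.34, 0.722 and 0.858 FPKM in Vector, KO1 and KO2, and fell in both clones (log2 -1.32, limma adjusted p = 0.000168, and -1.22, adjusted p = 0.000361). CXCL16, a membrane-bound chemokine that is also shed, had means of 1.15, 0.103 and 2.57 FPKM. It fell in KO1 (log2 -0.95, limma adjusted p = 0.00879) and rose in KO2 against KO1 (1.66, adjusted p = 0.000542). Its rise against Vector in KO2 (0.71, limma adjusted p = 0.0372) was lost in 12 of 18 other settings, including each fit without Vector replicate 1 or 2, without any 1 KO1 library, or without KO2 replicate 1 or 2, with a highest adjusted p of 0.140.

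On the receptor side, 14 chemokine and IL-1 receptor genes were listed, of which 5 were at 0 throughout, CXCR2 among them, and 2 passed the filter. Both rose in KO1, and in KO2 0 rose and 1 fell, with 0 rising also at an unadjusted limma p under 0.05 and with limma-voom. IL1RAP, the accessory chain that the IL-1 receptor needs to signal, averaged 2.70 ± 0.506 FPKM over the Vector libraries, 7.06 ± 0.144 over those of KO1 and 1.23 ± 0.124 over those of KO2 (SD, n = 3 each). It rose in KO1 (log2 1.13, limma adjusted p = 0.000114), fell in KO2 (-0.72, adjusted p = 0.00202) and fell between the clones (-1.85, adjusted p = 9.86e-06). SIGIRR, a receptor that dampens IL-1 and Toll-like signalling, rose in KO1 (log2 1.13, limma adjusted p = 0.00901). In KO2 its difference was 0.55 (adjusted p = 0.143), which passed without Vector replicate 3 and, at 0.99 (adjusted p = 0.00389), without both libraries that stood apart. IL1R1, the binding chain of the IL-1 receptor, was under the filter, with means of 0.459, 0.0173 and 0.0461 FPKM in Vector, KO1 and KO2.

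Of 28 genes that carry signals to NF-kB, 20 were fitted. In KO1 5 rose and 5 fell, and in KO2 1 rose and 5 fell, with medians of 0.05 and -0.26 beside 0.01 and -0.01 for all fitted genes. The calls in KO2 are near the background of 27.9%, and 34.1% of all fitted genes were called in KO1. TAB3, an adaptor of the TAK1 kinase, rose in KO1 (log2 0.996, limma adjusted p = 0.000196). IKBKE, a kinase related to the IkB kinases, rose there as well (0.62, adjusted p = 0.00339), but not with the median of the genes within 5 Mb subtracted (0.35, adjusted p = 0.0539). TRAF5, an adaptor of tumour necrosis factor receptors, and RIPK1, the kinase that joins these receptors to NF-kB, fell in KO1 (log2 -1.19, limma adjusted p = 0.000101, and -1.08, adjusted p = 0.000239). With the nearby median subtracted, the fall was -1.39 for TRAF5 (limma adjusted p = 4.21e-05) and -0.52 for RIPK1 (adjusted p = 0.015).

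TLR6, a Toll-like receptor, fell in both clones (log2 -0.79, limma adjusted p = 0.000686, and -1.0, adjusted p = 0.000230). IRAK2, a kinase downstream of the IL-1 receptor, had means of 9.72, 14.2 and 6.30 FPKM and fell in KO2 (log2 -0.57, limma adjusted p = 0.0131) and between the clones (-1.07, adjusted p = 0.000453). Its rise in KO1 (0.50, limma adjusted p = 0.0185) was lost in 5 of 18 settings, with a highest adjusted p of 0.718 with the nearby median subtracted. In KO2 TAB3 (log2 0.41, limma adjusted p = 0.0256) and TRAF5 (-0.39, adjusted p = 0.0400) also passed, and these calls were lost in 4 of 17 and 13 of 18 settings. The KO2 calls of this list were 2 without Vector replicate 1 or without Vector replicate 2, and 11 without Vector replicate 3, beside 6 with all libraries. All genes called in KO2 moved the same way, at 3203, 3298 and 6531 in these settings, beside 4586 with all libraries.

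**Figure D4:**
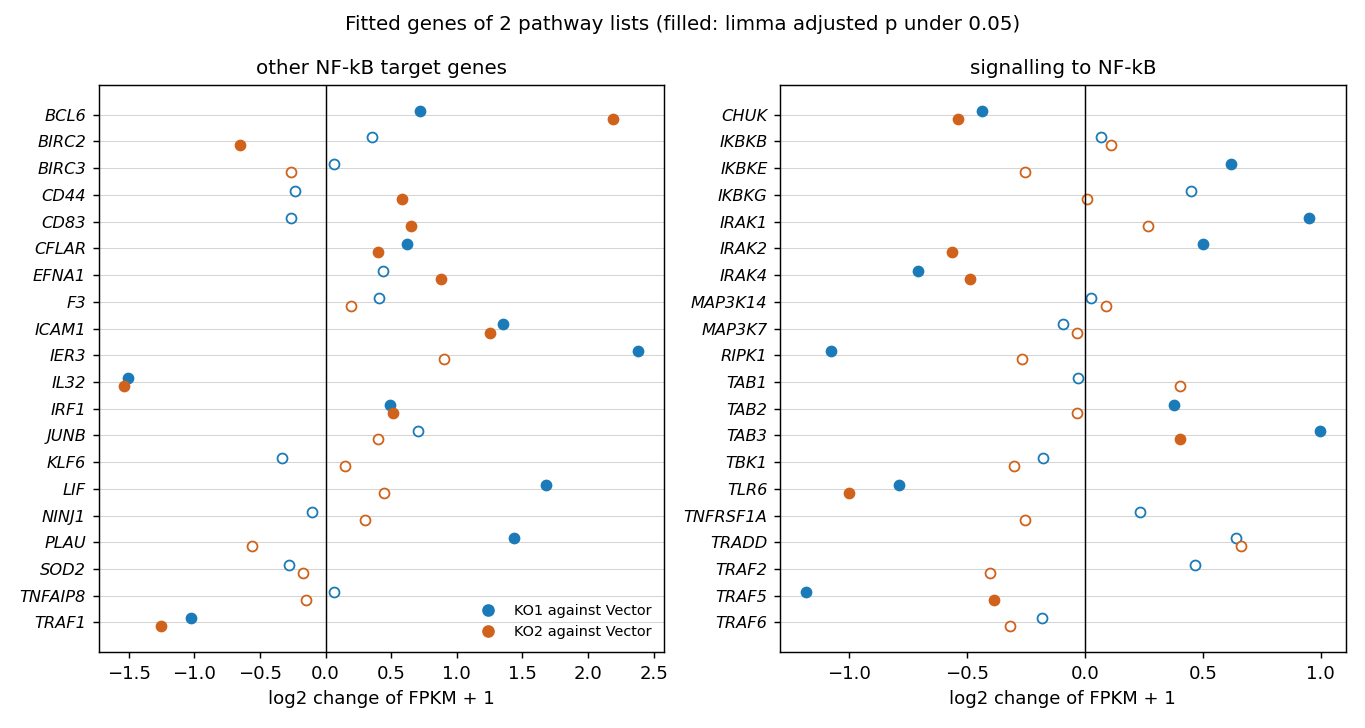
Log2 change of FPKM + 1 (x axis) of the fitted genes (y axis) of 2 lists, other NF-kB target genes at left and genes that signal to NF-kB at right, in KO1 and in KO2 against Vector; filled points have a limma adjusted p under 0.05. Among the targets ICAM1 (1.35 and 1.25) lies right and IL32 (-1.5 and -1.53) left in both clones, which share the Vector libraries.

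The 5 NF-kB subunit genes did not pass in either clone against Vector. RELA, the main activating subunit, had means of 16.6, 17.5 and 17.8 FPKM in Vector, KO1 and KO2, RELB 26.4, 23.2 and 19.8, and REL 0.882, 0.897 and 1.26. NFKB2 had means of 29.2, 29.1 and 25.1 FPKM. NFKB1, the precursor of p50, had means of 10.9, 11.5 and 8.64 FPKM, with a log2 difference of -0.30 in KO2 (limma adjusted p = 0.0609). At an unadjusted limma p under 0.05, 0 subunits were past in KO1 and 1 in KO2, and limma-voom called 0 in both. Without Vector replicate 3, RELA passed in both clones, and without both libraries that stood apart it did so with log2 changes of 0.24 (limma adjusted p = 0.0159) and 0.29 (adjusted p = 0.0121) in KO1 and KO2. In that last setting NFKB2 also passed in KO1 (0.27, limma adjusted p = 0.00511, against 0.04 with all libraries), and NFKB1 in KO2 (-0.20, adjusted p = 0.0458). Between the clones NFKB1 fell (log2 -0.37, limma adjusted p = 0.0241), a call lost in 6 of 18 settings: without KO1 replicate 1 or 3, without KO2 replicate 1 or 2, with the nearby median subtracted (-0.29, adjusted p = 0.0741) and with each library rescaled to the same FPKM sum (-0.27, adjusted p = 0.135).

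Among 13 other genes listed as inhibitors of NF-kB or members of the IkB family, 12 were fitted, and in each clone 2 rose and 1 fell. OTUD7B, a deubiquitinase, rose in both (log2 0.70, limma adjusted p = 0.00300, and 0.65, adjusted p = 0.00533), as did N4BP1, an inhibitor of NF-kB signalling (0.35, adjusted p = 0.0121, and 0.37, adjusted p = 0.0119). The N4BP1 call in KO1 was lost without KO1 replicate 2 (limma adjusted p = 0.0577), and that in KO2 when only the 6 libraries compared were fitted (adjusted p = 0.0678). TRAF3, which restrains the noncanonical pathway, fell in KO1 (log2 -0.68, limma adjusted p = 0.00223), and NFKBIB, which encodes IkB-beta, fell in KO2 (-0.80, adjusted p = 0.0134). With the median of nearby genes subtracted, these were -0.20 (adjusted p = 0.253) and -0.28 (adjusted p = 0.331), and neither passed. Without Vector replicate 3 the list had 5 calls in KO1 and 6 in KO2, and without KO2 replicate 3 it had 5 in KO1. All genes called in these settings were 7367, 6531 and 6435, beside 5609 in KO1 and 4586 in KO2 with all libraries.

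Of 38 other genes known as NF-kB targets, 20 were fitted, of which 7 rose and 2 fell in KO1 and 7 rose and 3 fell in KO2. Their median log2 change was 0.38 in KO1 and 0.35 in KO2, beside 0.01 and -0.01 for all fitted genes. ICAM1, the adhesion molecule that leukocytes bind, rose from 4.94 FPKM in Vector to 13.9 in KO1 and 12.9 in KO2 (log2 1.35, limma adjusted p = 0.000435, and 1.25, adjusted p = 0.000919). IER3, an immediate early survival gene, rose from 20.6 to 111.5 FPKM in KO1 (log2 2.39, limma adjusted p = 0.000583). In KO2 its mean was 42.9 FPKM (0.91, adjusted p = 0.0650), which passed in 3 of 18 settings, with a lowest adjusted p of 8.41e-05 without both libraries that stood apart.

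BCL6, a transcriptional repressor, rose from 1.69 FPKM in Vector to 3.44 in KO1 and 11.3 in KO2 (log2 0.72, limma adjusted p = 0.00178, and 2.19, adjusted p = 4.00e-06). IL32, a cytokine, fell from 2.22 FPKM to 0.135 and 0.109 (log2 -1.5, limma adjusted p = 2.30e-05, and -1.53, adjusted p = 3.03e-05). TRAF1, an adaptor of the tumour necrosis factor receptors, fell from 3.99 FPKM to 1.44 and 1.09 (log2 -1.03, limma adjusted p = 0.000178, and -1.25, adjusted p = 7.27e-05). IL6, an inflammatory cytokine, was listed at 0 in all libraries. Called targets of NF-kB lay in both directions in each clone, with 7 of 20 rising in each, and 2 falling in KO1 and 3 in KO2. Of all fitted genes, 17.4% rose and 16.7% fell in KO1, and 12.9% rose and 15.0% fell in KO2.

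Of 12 factors that control the decay of chemokine mRNA, 2 rose and 0 fell in KO1, and 0 rose and 1 fell in KO2, beside 34.1% and 27.9% of all fitted genes called in either direction. The count of 0 falling in KO1 and that of 0 rising in KO2 were the same at an unadjusted limma p under 0.05 and with limma-voom. ZFP36L2, which binds AU-rich elements and promotes decay, rose in KO1 from 16.4 to 26.6 FPKM (log2 0.67, limma adjusted p = 0.00792). HNRNPD rose in KO1 (log2 0.46, limma adjusted p = 0.0179), a call lost in 5 of 18 settings, and TIAL1 fell in KO2 (-0.35, adjusted p = 0.0235), a call lost in 8 of 18. The KO1 count was 1 without Vector replicate 2 or KO1 replicate 1 or 2 and 4 without Vector replicate 3. All genes called in KO1 in these settings were 4050, 3793, 3705 and 7367, beside 5609 with all libraries. The KO2 count was 0 without Vector replicate 1 or 2, KO1 replicate 2, or KO2 replicate 1 or 2, 3 without Vector replicate 3 and 2 without KO2 replicate 3. All genes called in KO2 were 3203, 3298, 3807, 3470, 3418, 6531 and 4423 in the same order, beside 4586 with all libraries.

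All 15 genes for factors that act with NF-kB at chemokine promoters were fitted, and 4 rose and 5 fell in KO1, and 3 rose and 5 fell in KO2. FOSL1, an AP-1 subunit, had means of 167.8, 193.9 and 48.5 FPKM in Vector, KO1 and KO2, and fell in KO2 (log2 -1.76, limma adjusted p = 2.28e-05) and between the clones (-1.98, adjusted p = 1.19e-05). FOSL2, another AP-1 subunit, rose in both clones (log2 0.89, limma adjusted p = 0.00109, and 1.02, adjusted p = 0.000676). CEBPB, a factor of inflammatory promoters, had means of 32.1, 87.0 and 17.9 FPKM, rose in KO1 (log2 1.44, limma adjusted p = 0.00247) and fell between the clones (-2.25, adjusted p = 0.000251). Its fall in KO2 (-0.81, limma adjusted p = 0.0403) was lost in 12 of 18 settings, with a highest adjusted p of 0.0985 without KO2 replicate 3.

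CEBPG, a dimer partner of other C/EBP proteins, fell in KO2 (log2 -2.24, limma adjusted p = 3.71e-06). It fell in KO1 too (-0.95, adjusted p = 0.000385), though not with the nearby median subtracted (-0.26, adjusted p = 0.157). EGR1, an immediate early factor, fell in KO1 (log2 -1.08, limma adjusted p = 0.00493), and STAT3, the factor activated by IL-6 family cytokines, rose in KO2 (0.57, adjusted p = 0.00241). The STAT3 rise in KO1 (0.31, limma adjusted p = 0.0311) was lost in 8 of 18 settings, with a highest adjusted p of 0.110 without KO1 replicate 2. The list had 5 calls in KO1 without KO1 replicate 2 and 5 in KO2 without KO2 replicate 2, beside 9 and 8 with all libraries. All genes called in these settings were 3705 and 3418, beside 5609 and 4586 with all libraries.

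The genes whose levels followed CXCL2 most closely were drawn from 7476 genes that averaged 5 FPKM or more, by Pearson's r of log2(FPKM + 1) over the 9 libraries. They were EXOSC5, a subunit of the RNA exosome (r = 0.994), the kinase genes MAP2K3 (0.990) and GSK3A (0.989), C9orf40 (0.985) and the homeobox gene HOXC6 (0.985). All 5 had their lowest mean in KO2, which their choice by likeness to CXCL2 favours. EXOSC5 had means of 33.7, 30.4 and 11.8 FPKM in Vector, KO1 and KO2. These correlations describe 9 libraries that share 3 groups and 2 libraries that stood apart. None of the 5 lies on chromosome 4, while EXOSC5 and GSK3A both lie on chromosome 19. Whether the genes around these 2 fell with them in KO2 was not tested.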

How the data were processed

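Per the labels' protocols, TRIzol RNA of H1299 cells was turned into NEBNext Ultra libraries and read on an Illumina NovaSeq. The authors deposited 1 table of FPKM per gene, and the submitters' processing notes name CASAVA 1.6, HISAT2 2.0.5, featureCounts 1.5.0-p3 and the build hg38. For strand and multi-mapping, settings were not given in the sources used here. GENCODE 29 held each of the 58735 identifiers and supplied the coordinates. Reads recovered as FPKM times merged exon length were whole for 100.0% of values (tolerance 0.02 reads), with 16002212 to 17090445 a library.

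Values were taken as log2(FPKM + 1). The 16426 genes averaging 0.5 FPKM or more entered limma 3.58.1 (R 4.3.3, trended empirical Bayes), with the 9 libraries in a single fit and Benjamini-Hochberg adjustment within each comparison. Lower genes were compared by two-sided exact permutation tests over libraries (scipy 1.17.1). The limma procedure was tested on simulated data with the same dispersion for all genes and no library set apart. That test does not cover the spread from the 2 libraries that stood apart. Promoters come from a RefSeq table of GRCh38.p14. The members and lists were chosen with earlier results of these data known. Named are all members, all NF-kB subunits and, from each other list, up to 2 rising and 2 falling genes of smallest p per clone. IL1R1, IL6 and CXCR2 were added after their values were seen. The 5 genes most like CXCL2 are named too. The same for CXCL8 was not drawn, since it had 0 to 3 reads a library. SOD2 stands in the table under 2 identifiers, of which the first was used. Alternatives covered pseudocount, filters, scaling, limma-voom on recovered reads, the libraries compared, a replicate block, subtraction of the median of genes within 5 Mb, and libraries left out. After that subtraction p was recomputed with the unchanged limma SE of each gene, which leaves out the error of the median.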

Additional observations from a re-analysis of the deposited data

Results flagged for a closer look

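CXCL2 and NFKBIA drew attention because the 2 knockout clones, made by editing the same gene, differed from each other when the difference itself was tested. For CXCL2 the change in KO2 minus the change in KO1 was -1.86 on the log2 scale (limma adjusted p = 0.000856), and all 3 KO2 libraries were below all 3 KO1 libraries. For NFKBIA it was 1.52 (limma adjusted p = 0.000779), with all 3 KO2 libraries above all 3 KO1 libraries. Each clone is 1 line, so a difference between clones and the variation among clones of this cell line cannot be told apart.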

How the results depend on the processing

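The fall of CXCL2 in KO2 passed in 18 of 18 other settings (log2 -2.30 to -1.59), as did that of NFKBIA in KO1 (-1.84 to -0.92) and both differences between the clones (CXCL2 -2.02 to -1.61, NFKBIA 0.95 to 1.97). Without a filter on low values 3 of the 10 genes were called in KO1, 2 in KO2 and 5 between the clones. Of all 35603 genes fitted in that setting, 5702, 4747 and 4903 were called in the same order. The calls in KO2 and between the clones include CCL2, whose 0 reads outside KO2 leave its SE in that fit uncertain. Those in KO1 and between the clones include IL1A and IL1B, whose SE in that fit may also be too small. Without both libraries that stood apart (a setting chosen after seeing the data) 2 of the 5 fitted genes were called in KO2. All genes called there were 8138 of 16426, beside 4586 with all libraries. All genes called in KO1 ranged from 3705 to 7367 with 1 library left out and reached 9335 without both that stood apart. In KO2 they ranged from 3203 to 6531, with 2963 from the 6 libraries compared alone and 8138 without both that stood apart. Between the clones they ranged from 3337 to 6756, and 7834 without both. Values that did not pass changed sign as follows, and the cause was not tested. CXCL2 in KO1 ranged from -0.44 to 0.0169 with 1 library left out, and was 0.0169 without both that stood apart. CXCL3 in KO2 ranged from -0.20 to 0.00616, and was 0.0244 without both. NFKBIA in KO2 ranged from -0.0598 to 0.38 and was -0.00029 with the median of genes within 5 Mb subtracted. With that subtraction TNFAIP3 was 0.00991 in KO2 and 0.18 between the clones. CXCL1 between the clones ranged from -0.14 to 0.26. Over all settings 253 recomputed changes of the fitted genes kept direction and call, 10 changed sign, and 1 newly passed (NFKBIA in KO2 without both libraries that stood apart, 0.50). A mean of at least 1 FPKM leaves out CXCL1 and CXCL3. Same-numbered libraries did not deviate together (correlations -0.20 to 0.14). A replicate block gave 4911, 3953 and 4428 called genes in the 3 comparisons and changed no call among the 5 fitted genes. Depth limits the 5 unfitted genes, which had 1 to 64 reads in all libraries together.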
